A study of Homo sapiens with 9 samples.

Results

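CIITA, the 3 RFX subunits RFX5, RFXAP and RFXANK, and the 3 NF-Y subunits NFYA, NFYB and NFYC form the protein complex that assembles on the promoters of MHC class II genes. These 7 genes were taken by name, with every probe set that the platform annotation assigns to 1 of them and to no other gene. They are 7 of the 19775 genes named in this way, and hold 24 of the 41091 such probe sets. The cells were BL2, an established human Burkitt lymphoma line derived from germinal centre B cells, and their RNA was hybridised to HG-U133 Plus 2.0 arrays. They were left untreated (control), or were treated for 6 hrs with recombinant CD40L at 200 ng/ml or with LPS at 1 uM. All 3 conditions were run in each of 3 experimental batches, which gives 9 arrays of a single cell line. Both stimuli were measured at a single time point, and the labels give no time for the controls. The labels number the batches, and the paper describes 3 independent biological experiments. The p-values measure the spread between these arrays. CD40L is the T cell ligand of CD40, and LPS, a bacterial cell wall component, acts through TLR4.

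MHC class II genes share a promoter module of an X box, an adjoining X2 box and a Y box. RFX binds the X box, CREB family factors bind the X2 box and NF-Y binds the Y box, which is an inverted CCAAT sequence. CIITA does not bind DNA itself, but is recruited by these factors and switches transcription on. B cells express class II molecules and CIITA constitutively, whereas RFX and NF-Y are made in most cell types. NF-Y also binds CCAAT boxes of many other genes, and loss of CIITA, RFX5, RFXAP or RFXANK causes bare lymphocyte syndrome.

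Arranged X and Y letters could be read in promoters of genes listed as class II targets, a list that also holds CD74 and BTN2A2. RefSeq promoters of build GRCh38.p14, from 250 bases before to 50 bases after the start of a gene, were searched on both strands for the Y box letters CCAAT and for the X box letters AGNNACNGA, where N is any base. The X letters and the spacing were chosen with these promoters in view. An X match followed after 20 to 30 bases by ATTGG, the reverse complement of CCAAT, stood in 5 of the 13 promoters found for these listed genes. The same arrangement stood in 55 of 35116 promoters of all genes, or 0.157%. Those 5 are shown because they carry both sites of the complex, with the X letters and the ATTGG of the Y box in capitals, each on the strand of its gene.
HLA-DRB1: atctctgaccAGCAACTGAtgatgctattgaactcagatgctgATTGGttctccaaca
HLA-DQA1: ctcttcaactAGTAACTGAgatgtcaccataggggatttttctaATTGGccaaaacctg
HLA-DQB1: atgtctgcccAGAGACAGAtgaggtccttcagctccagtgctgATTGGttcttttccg
HLA-DMA: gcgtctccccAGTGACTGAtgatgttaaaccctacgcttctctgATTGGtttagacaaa
HLA-DOA: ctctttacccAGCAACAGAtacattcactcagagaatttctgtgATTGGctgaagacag
These stretches lie upstream of the starts of their genes at chr6:32589880-32589937 (HLA-DRB1, minus strand), chr6:32637294-32637352 (HLA-DQA1, plus strand), chr6:32666731-32666788 (HLA-DQB1, minus strand), chr6:32953162-32953220 (HLA-DMA, minus strand) and chr6:33009644-33009702 (HLA-DOA, minus strand). The bases between the capitals number 24 in HLA-DRB1 and HLA-DQB1 and 25 in the other 3. A match of letters is a description of the sequence and not a bound site.

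Among the complex's own genes, CIITA and RFX5 mRNA rose after both stimuli, while RFXAP, RFXANK and the NF-Y subunits passed no test. Values are deposited on a generalised log2 scale that compresses low signals, so the changes of dim probe sets are understated. A probe set's level depends on its probes, so brightness is given as a description of the signal and not as a comparison of mRNA amounts between genes. Changes (log2FC) were tested with limma, with the batch in the model and p-values adjusted over all 54613 probe sets (adjusted p, with a threshold of 0.05). After CD40L, 4 of the 24 probe sets rose (2 of CIITA, 2 of RFX5) and 0 fell, against 3.71% and 1.87% of all probe sets. After LPS, 3 rose and 0 fell, against 1.17% and 0.892%. The median log2FC of the 24 probe sets was 0.06 after CD40L and 0.04 after LPS, and that of all probe sets was 0.0050 and 0.0029.

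CIITA, the coactivator, was measured by 3 probe sets. The brightest, 205101_at, read 6.84, 6.90 and 6.99 in the control arrays of batches 1, 2 and 3. It read 7.56, 7.73 and 7.81 after CD40L, and 7.22, 7.40 and 7.31 after LPS. All CD40L arrays lay above all LPS arrays, and these above all controls. The means were 6.91 ± 0.08, 7.70 ± 0.13 and 7.31 ± 0.09 (SD, n = 3 arrays each). CIITA rose by a log2FC of 0.79 after CD40L, a 1.73-fold change on this scale (limma SE 0.06, adjusted p = 5.32e-07), and by 0.40 after LPS, or 1.32-fold (adjusted p = 0.00157). In bulk RNA, a change in the number of expressing cells and a change in RNA per cell cannot be told apart.

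A dimmer CIITA probe set, 211884_s_at, read 6.66, 6.51 and 6.49 in control, 6.93, 6.87 and 6.99 after CD40L, and 6.75, 6.70 and 6.67 after LPS. Its order of conditions was the same, with no overlap between groups. The CD40L rise of 0.38 passed the test (adjusted p = 0.00103), and the LPS difference of 0.15 did not (adjusted p = 0.293, 95% interval 0.02 to 0.28). The third, 210925_at, lay between 6.28 and 6.57 on all arrays, close to the median of 6.45 over all probe sets. Its differences of 0.15 after CD40L and 0.10 after LPS did not pass (adjusted p = 0.211 and 0.627). The 3 CIITA probe sets thus had the same sign after both stimuli and differed in size.

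RFX5, the RFX subunit that gives the complex its DNA-binding domain, was among the brightest probe sets of the arrays. Its probe set 202963_at read 11.16, 10.93 and 11.19 in control, 11.93, 11.85 and 11.91 after CD40L, and 11.54, 11.38 and 11.54 after LPS. The 3 conditions did not overlap and stood in the same order as for CIITA. RFX5 rose by 0.81 after CD40L, or 1.75-fold (limma SE 0.06, adjusted p = 4.03e-07), and by 0.39 after LPS, or 1.31-fold (adjusted p = 0.00157).

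The other RFX5 probe set, 202964_s_at, was more variable between batches. It read 10.17, 9.58 and 9.78 in control, 10.71, 10.69 and 10.42 after CD40L, and 10.39, 10.26 and 10.04 after LPS. The CD40L arrays lay above all others, whereas control and LPS arrays overlapped. It rose by 0.77 after CD40L (adjusted p = 3.66e-05) and by 0.39 after LPS (adjusted p = 0.0265). The LPS call did not hold without replicate 1 (0.47, adjusted p = 0.0749), replicate 2 (0.24, 0.0652) or replicate 3 (0.45, 0.144), and also not without control replicate 2 (0.23, 0.0716), CD40L replicate 3 (0.39, 0.0657) or LPS replicate 1 (0.41, 0.139), 2 (0.33, 0.206) or 3 (0.42, 0.114). The LPS rise of RFX5 therefore rests on 202963_at.

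**Figure D1:**
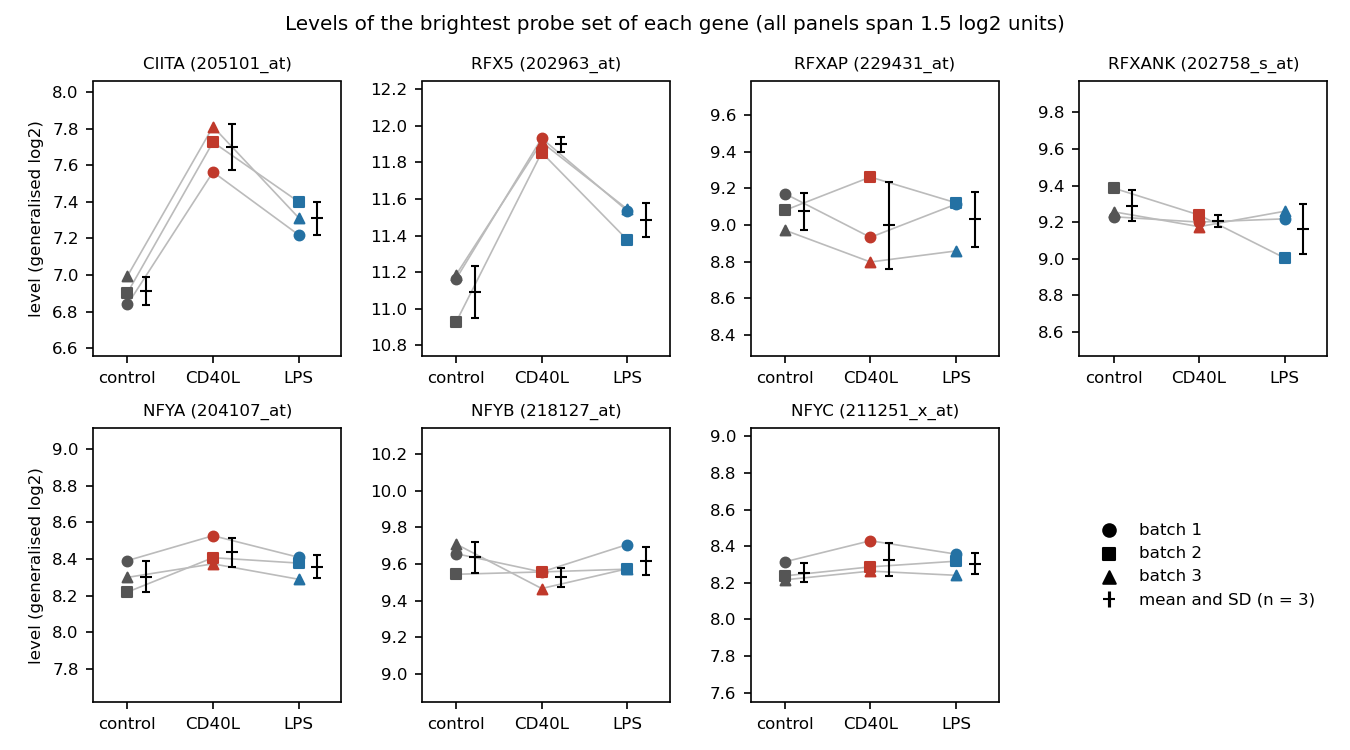
Levels of the brightest probe set of each of the 7 genes on the generalised log2 scale (vertical axes) in control, CD40L and LPS arrays. Symbols are single arrays, shaped by batch and joined within it, with the mean and SD (n = 3) beside them. CIITA and RFX5 show 3 separate groups, control lowest and CD40L highest, and for each of the other 5 genes both stimulated groups overlap the controls.

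The remaining RFX subunits showed no difference that passed the test. RFXAP, the subunit that joins RFX5 in the complex, read 9.17, 9.08 and 8.97 in control, 8.93, 9.26 and 8.80 after CD40L, and 9.11, 9.12 and 8.86 after LPS with probe set 229431_at. The groups overlapped, and the differences from control were -0.08 after CD40L (95% interval -0.23 to 0.08, adjusted p = 0.726) and -0.04 after LPS (adjusted p = 0.917). The sign of these small RFXAP differences depended on single arrays. Its other probe set, 208492_at, lay between 7.24 and 7.60 on all arrays and did not pass either (0.05 and -0.04). RFXANK, the ankyrin repeat subunit, read 9.23, 9.39 and 9.26 in control, 9.20, 9.24 and 9.18 after CD40L, and 9.22, 9.00 and 9.26 after LPS. Its differences were -0.09 (interval -0.24 to 0.07, adjusted p = 0.673) and -0.13 (interval -0.28 to 0.02, adjusted p = 0.544). A rise as large as that of RFX5 lay outside both RFXANK intervals.

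The NF-Y subunits have 16 probe sets, 6 of NFYA, 4 of NFYB and 6 of NFYC. NFYA is the subunit that contacts the CCAAT sequence, and NFYB and NFYC form its histone-fold partner. The brightest NFYA probe set, 204107_at, read 8.39, 8.22 and 8.30 in control, 8.53, 8.41 and 8.37 after CD40L, and 8.41, 8.38 and 8.29 after LPS. Its CD40L difference of 0.13 did not pass (adjusted p = 0.253, interval 0.01 to 0.25), and the groups overlapped. The brightest NFYB probe set, 218127_at, read 9.66, 9.54 and 9.71 in control, 9.56, 9.56 and 9.47 after CD40L, and 9.71, 9.57 and 9.57 after LPS. Its CD40L difference was -0.11 (adjusted p = 0.439, interval -0.24 to 0.02). The brightest NFYC probe set, 211251_x_at, read 8.31, 8.24 and 8.22 in control, 8.43, 8.29 and 8.26 after CD40L, and 8.36, 8.32 and 8.24 after LPS, and the groups overlapped. The suffix _x_at marks probes that can also match other transcripts.

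No NF-Y probe set was called in either direction after CD40L, and none after LPS. NFYA probe set 204108_at was the only NF-Y probe set whose CD40L arrays (8.37, 8.35 and 8.36) all lay above the controls (8.31, 8.18 and 8.26), with a difference of 0.11 (adjusted p = 0.365). NFYC 238231_at was the only one with all CD40L arrays (5.83, 5.86 and 5.73) below the controls (5.88, 5.92 and 5.91), with a difference of -0.09. Over all probe sets, 9.09% had all CD40L arrays above and 7.27% all below the controls. The intervals of the 16 NF-Y probe sets reached from -0.24 (NFYB, CD40L) to 0.27 (NFYA, LPS), so changes as large as those of CIITA 205101_at and RFX5 202963_at lay outside the interval of each. The dimmest probe sets, NFYA 228431_at and NFYC 238231_at, lay below 6 on all arrays, where a change could be hidden.

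**Figure D2:**
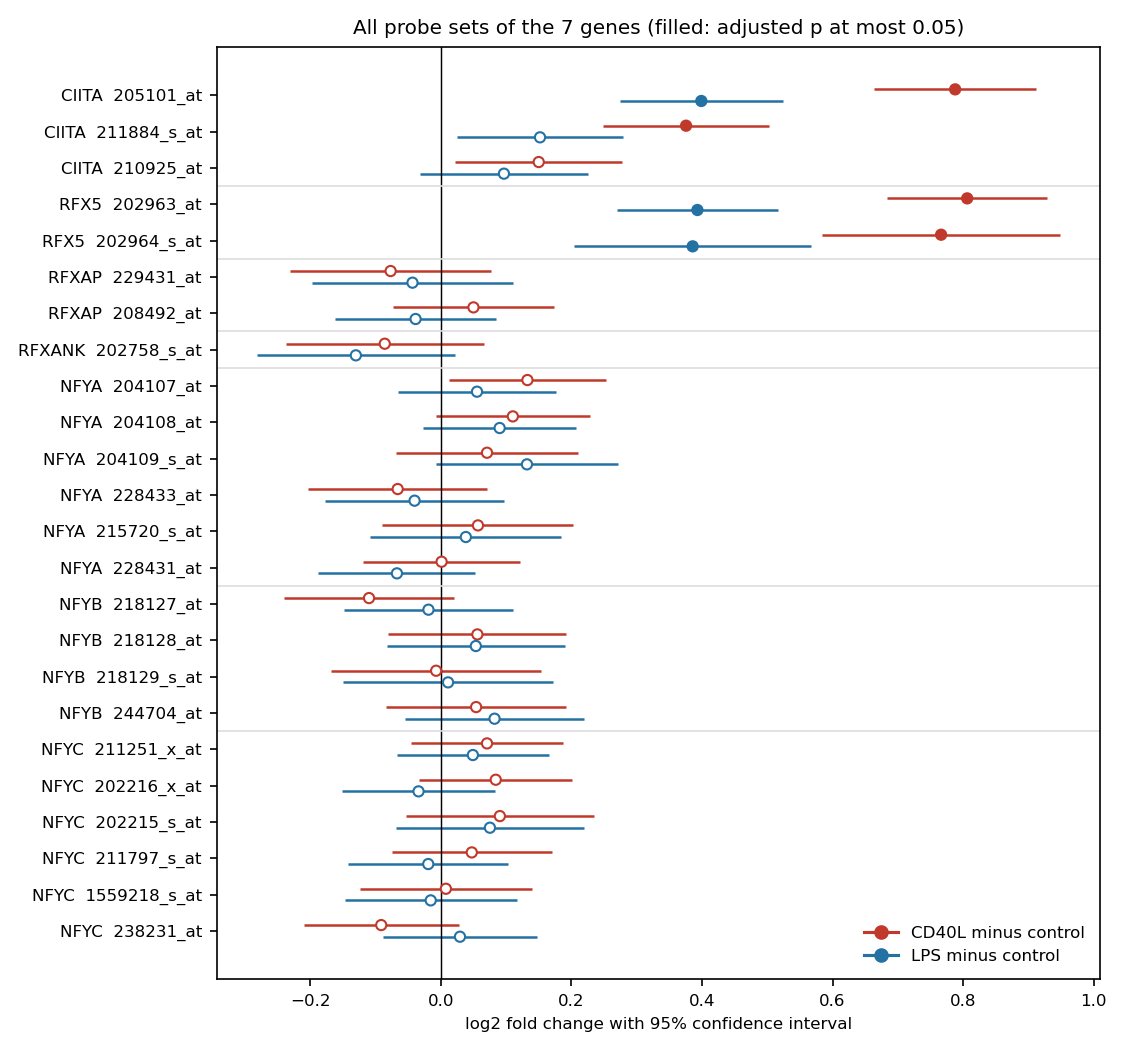
Log2FC of the 24 probe sets against control after CD40L (red) and LPS (blue), with the 95% interval of limma. Filled points passed the test. The CD40L points of CIITA 205101_at and of both RFX5 probe sets lie near 0.8, their LPS points near 0.4, and the points of RFXAP, RFXANK and NF-Y lie between -0.13 and 0.13.

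CD40L was compared with LPS directly, as both changed CIITA and RFX5. CIITA 205101_at was 0.39 higher after CD40L (1.31-fold, limma SE 0.06, adjusted p = 0.00438), and RFX5 202963_at 0.41 higher (1.33-fold, adjusted p = 0.00226). These were 2 of the 24 probe sets, with 0 lower, against 0.3% higher and 0.0952% lower among all probe sets. For CIITA 211884_s_at and RFX5 202964_s_at, CD40L arrays also lay above all LPS arrays, by 0.22 (adjusted p = 0.244) and 0.38 (adjusted p = 0.0885). The other 20 probe sets lay between -0.12 and 0.12 in this comparison, and 0 of them were called. Of the 24 probe sets, 5 had all CD40L arrays above the LPS arrays, NFYC 202216_x_at among them. For 2, NFYB 218127_at and NFYC 238231_at, all CD40L arrays lay below the LPS arrays. Over all probe sets, these shares were 5.10% above and 4.07% below.

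These calls between the stimuli depended on single arrays and on the batch term. The CIITA call was lost without replicate 1 (0.41, adjusted p = 0.109), replicate 3 (0.33, 0.259), CD40L replicate 3 (0.35, 0.0920), LPS replicate 1 (0.40, 0.0685) or LPS replicate 3 (0.34, 0.101). The RFX5 202963_at call was lost without replicate 1 (0.42, adjusted p = 0.0988), replicate 3 (0.44, 0.104) or LPS replicate 1 (0.41, 0.0514). Without the batch term both were lost (adjusted p = 0.0858 and 0.0645). The CIITA and RFX5 differences from control in 205101_at and 202963_at stayed called for both stimuli under every alternative run.

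By their brightest probe sets, CIITA and RFX5 also resembled each other batch by batch. CIITA 205101_at changed by 0.72, 0.82 and 0.82 after CD40L and by 0.38, 0.50 and 0.32 after LPS in batches 1, 2 and 3. RFX5 202963_at changed by 0.77, 0.93 and 0.72 after CD40L and by 0.37, 0.45 and 0.36 after LPS. By the root mean square (RMS) difference over these 6 changes, which share 3 control arrays, RFX5 was the nearest of 12629 genes to CIITA and CIITA the nearest to RFX5 (0.0645, over 23093 probe sets brighter than the median). PIK3CD, a catalytic subunit of PI3K (0.0722), TNFSF4, the OX40 ligand (0.0779), HLA-G (0.0787) and HLA-F (0.0806) followed for CIITA. For RFX5, TAP1, a subunit of the peptide transporter of class I presentation (0.0715), HLA-F (0.0777), TNFSF4 (0.0777) and HLA-G (0.0780) followed. These values are a description of likeness in size and carry no test. They hold for the brightest probe sets of CIITA and RFX5 only. CIITA 211884_s_at changed by 0.26, 0.36 and 0.50 after CD40L and by 0.08, 0.19 and 0.18 after LPS. RFX5 202964_s_at changed by 0.55, 1.11 and 0.64 after CD40L and by 0.22, 0.67 and 0.26 after LPS. Likeness in size also depends on the scale, which compresses low signals.

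**Figure D3:**
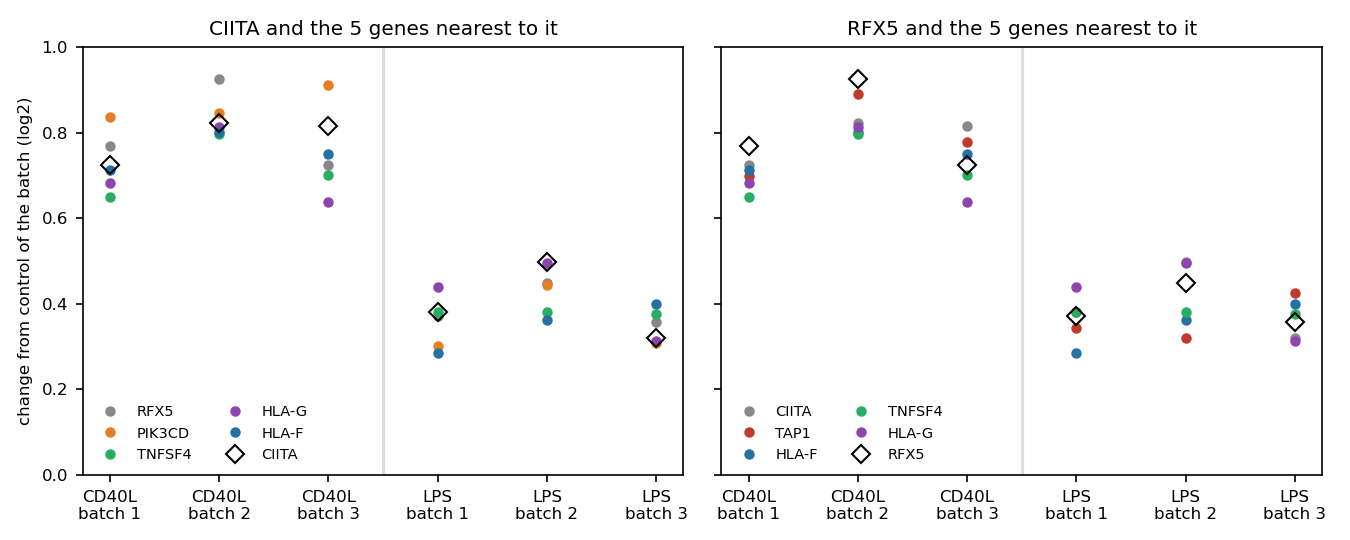
Within-batch changes from control (log2 scale, vertical axis) after CD40L and LPS in batches 1 to 3 for CIITA and for RFX5 (open diamonds), each drawn with the 5 genes nearest to it by RMS difference. In both panels the CD40L changes of all genes drawn lie above their LPS changes.

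Promoters of the complex's own genes were searched for the same letters. RefSeq promoters were found for 5 of the 7 genes, 11 promoters in all, and none for CIITA and NFYB. CCAAT stood in 5 of the 11, namely 1 of 3 of RFX5, 1 of NFYA and 3 of NFYC, and in 34.6% of all promoters. The X letters stood in 0 of the 11 and in 15.3% of all promoters, which says only that these letters are not in these windows. NFYA and NFYC, whose promoters also hold CCAAT, passed no test, and a link between these letters and the rise of RFX5 was not tested. In that RFX5 promoter, 2 CCAAT matches (capitals) lie 77 bases apart at chr1:151347333-151347439 on the minus strand. The stretch is shown because RFX5 rose after both stimuli, a choice made after the values were seen.
RFX5: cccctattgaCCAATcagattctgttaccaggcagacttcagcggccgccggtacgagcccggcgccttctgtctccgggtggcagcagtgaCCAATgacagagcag
Of the class II target genes listed, 12 of 14 had a promoter entry. CCAAT stood in 11 of their 13 promoters, the X letters in 7 and both in 6, against 5.31% of all promoters with both. As the X letters were chosen with these promoters in view, these counts are a description only. In HLA-DMB the X and CCAAT matches overlapped.

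Class II target genes rose after both stimuli, most of those measured after CD40L and fewer after LPS. Each gene was measured by its brightest probe set, and 13 of the 14 listed were measured, HLA-DQA2 being not analysed here. After CD40L, 10 rose and 1 fell, with a median log2FC of 0.55. After LPS, 6 rose and 1 fell, with a median of 0.26. BTN2A2, a butyrophilin family member, rose by 1.25 with CD40L (adjusted p = 8.72e-09) and by 0.49 with LPS (adjusted p = 0.000324). HLA-DQA1, an alpha chain, rose by 1.00 (adjusted p = 8.81e-08) and 0.59 (adjusted p = 0.000124). Its partner HLA-DQB1 rose by 0.99 (adjusted p = 5.46e-07) and 0.72 (adjusted p = 0.000124), and HLA-DOA, a chain of the HLA-DM modulator, by 0.89 (adjusted p = 5.36e-06) and 0.53 (adjusted p = 0.00275). The brightest probe sets of HLA-DQB1 and HLA-DRB1 carry the suffix _x_at, so their probes can also match other transcripts.

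The BTN2A2 arrays read 7.30, 7.20 and 7.35 in control, 8.50, 8.51 and 8.59 after CD40L, and 7.79, 7.79 and 7.73 after LPS, with no overlap and the order seen for CIITA. Of the other genes whose promoters are shown, HLA-DRB1 rose by 0.55 (adjusted p = 4.05e-05) and 0.30 (adjusted p = 0.0167), and HLA-DMA by 0.50 after CD40L (adjusted p = 0.000309), with an uncalled 0.26 after LPS (adjusted p = 0.07). The LPS call of HLA-DRB1 was lost without replicate 1 (0.33, adjusted p = 0.128), replicate 3 (0.27, 0.135), control replicate 1 (0.31, 0.0532) or LPS replicate 1 (0.34, 0.0689), 2 (0.32, 0.0725) or 3 (0.24, 0.172). That call was also lost without the batch term (0.30, 0.233), with the batch as a random effect (0.152) or in a robust fit with an intensity trend (0.0540). HLA-DOB, the beta chain that pairs with HLA-DOA and the only class II gene to fall, is named after its values were seen. It read 9.07, 9.03 and 8.92 in control, 8.67, 8.70 and 8.69 after CD40L, and 8.64, 8.55 and 8.71 after LPS, so the stimulated arrays all lay below the controls. It fell by 0.31 after CD40L (adjusted p = 0.00546) and by 0.37 after LPS (adjusted p = 0.00442). Without replicate 1 neither HLA-DOB call held (-0.27, adjusted p = 0.135, and -0.34, 0.120). The same was true for CD40L without CD40L replicate 1 (-0.29, 0.0535) and for LPS without LPS replicate 1 (-0.36, 0.0595) or 2 (-0.32, 0.0587).

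**Figure D4:**
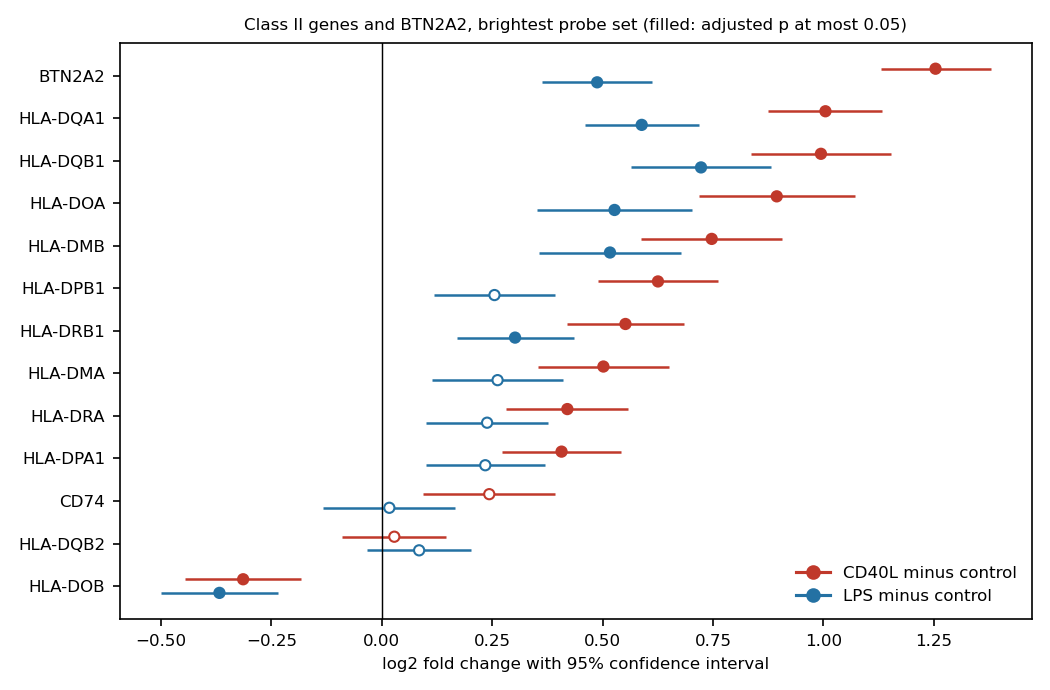
Log2FC of the measured class II target genes, BTN2A2 and CD74 included, after CD40L and LPS. Each is shown by its brightest probe set, with the 95% interval of limma and filled points where the test was passed. The points of most genes lie above 0 and those of HLA-DOB lie below 0 after both stimuli.

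Between the stimuli, 3 of the listed class II target genes were higher after CD40L. These were the butyrophilin gene BTN2A2 by 0.77 (adjusted p = 8.04e-06), and the class II genes HLA-DQA1 by 0.42 (adjusted p = 0.00321) and HLA-DPB1 by 0.37 (adjusted p = 0.0140). The HLA-DQA1 call was lost without replicate 1 (0.43, adjusted p = 0.0806), replicate 3 (0.45, 0.118), CD40L replicate 3 (0.43, 0.0507) or LPS replicate 1 (0.40, 0.0822). The HLA-DPB1 call was lost without replicate 1 (0.38, adjusted p = 0.306), replicate 3 (0.41, 0.172), CD40L replicate 1 (0.39, 0.0935) or 2 (0.30, 0.146), or LPS replicate 1 (0.37, 0.183), 2 (0.37, 0.104) or 3 (0.38, 0.140), and also without the batch term (0.37, 0.535) or with the batch as a random effect (0.327). That of HLA-DQA1 was lost without the batch term too (0.42, 0.0903). HLA-DQB1 differed by 0.27 between the stimuli and did not pass (adjusted p = 0.274).

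Class I genes and their coactivator NLRC5, which is related to CIITA and uses the same RFX complex, were listed beside class II. Of 9 measured genes, 6 rose and 0 fell after CD40L (median 0.67) and after LPS (median 0.36). HLA-B rose by 0.60 (adjusted p = 5.62e-06) and 0.41 (adjusted p = 0.000928), HLA-C by 0.68 (adjusted p = 1.45e-06) and 0.49 (adjusted p = 0.000189), and HLA-E by 0.84 (adjusted p = 7.56e-07) and 0.54 (adjusted p = 0.000341). HLA-F rose by 0.75 and 0.35, HLA-G by 0.67 and 0.39, and TAP1 by 0.79 and 0.36 (adjusted p = 0.00397 or smaller in each). Probes of class I genes can also match related HLA transcripts. NLRC5 itself differed by 0.18 after CD40L (adjusted p = 0.0724) and 0.05 after LPS (adjusted p = 0.845). B2M differed by 0.05 and 0.02 (adjusted p = 0.876 and 0.974), and PSMB9 by -0.12 and -0.20 (adjusted p = 0.435 and 0.173), so neither passed. Without replicate 3 the LPS calls of HLA-B (0.36, adjusted p = 0.0537), HLA-F (0.32, 0.0838), HLA-G (0.42, 0.0512) and TAP1 (0.33, 0.106) were lost. That of TAP1 was also lost without replicate 1 (0.37, 0.0657), LPS replicate 1 (0.35, 0.0588) or LPS replicate 3 (0.33, 0.0557).

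Among other proteins listed beside the complex, CREM was the only gene of the lists described here that passed. Another list held coactivators of CIITA, such as the acetyltransferases CREBBP and EP300, together with chromatin enzymes such as HDAC1, HDAC2 and EZH2. Of its 18 measured genes, 0 passed after either stimulus, with medians of 0.13 after CD40L and 0.07 after LPS. CREBBP differed by 0.15 after CD40L (adjusted p = 0.360). Of 4 measured CREB and ATF factors, CREM alone rose, by 0.77 after CD40L (adjusted p = 0.000153) and 0.80 after LPS (adjusted p = 0.000427). CREM read 8.60, 8.13 and 8.23 in control, 9.10, 9.35 and 8.82 after CD40L, and 9.20, 9.28 and 8.86 after LPS, so CD40L and LPS arrays overlapped, unlike those of CIITA. CREM yields activator and repressor isoforms, which this probe set does not separate. Of the 6 other RFX family genes measured, 0 passed, with medians of 0.0050 and 0.02. Over all probe sets, 3.71% rose and 1.87% fell after CD40L, and 1.17% and 0.892% after LPS. Lists this short can hold 0 calls at these shares.

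Regulators of the CIITA promoter moved in both directions. Of 14 measured, 1 rose and 2 fell after CD40L, and 2 rose and 3 fell after LPS. IRF4, an interferon regulatory factor of activated B cells, rose by 0.46 (adjusted p = 0.00176) and 0.58 (adjusted p = 0.000766). Its relative IRF8 read 10.92, 11.11 and 11.11 in control, 10.19, 10.05 and 10.13 after CD40L, and 10.64, 10.49 and 10.73 after LPS. IRF8 thus stood in the reverse order of CIITA, with no overlap. It fell by 0.92 after CD40L (adjusted p = 5.67e-07) and by 0.43 after LPS (adjusted p = 0.00347), the latter not without replicate 3 (-0.45, 0.0730).

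BCL6, a germinal centre repressor, fell by 0.47 after CD40L (adjusted p = 0.00021) and by 0.31 after LPS (adjusted p = 0.0144). ZBTB32, a repressor of CIITA in plasma cell differentiation, rose by 0.28 after LPS (adjusted p = 0.0387), and SOCS1, a brake on JAK-STAT signalling, fell by 0.31 after LPS (adjusted p = 0.0219). CD40L did not change ZBTB32 or SOCS1 past the threshold (0.05, adjusted p = 0.823, and 0.04, adjusted p = 0.856). The LPS call of BCL6 was lost without replicate 1 (-0.38, adjusted p = 0.0599), replicate 3 (-0.26, 0.209), control replicate 3 (-0.26, 0.0762), LPS replicate 2 (-0.27, 0.133) or LPS replicate 3 (-0.29, 0.126). Those of ZBTB32 and SOCS1 were lost without replicate 1 (0.26, adjusted p = 0.257, and -0.38, 0.0708), replicate 3 (0.25, 0.223, and -0.22, 0.246), control replicate 3 (0.22, 0.162, and -0.22, 0.117) or any single LPS array (adjusted p 0.0966 to 0.351 and 0.0812 to 0.190), and that of ZBTB32 also without control replicate 1 (0.30, 0.0737). PAX5, the B cell identity factor, and PRDM1, the plasma cell repressor of CIITA, did not pass after CD40L (0.39, adjusted p = 0.107, and 0.02, adjusted p = 0.948).

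CCAAT box genes of the cell cycle, another known group of NF-Y targets, were listed as well. Of 14 measured, 1 rose and 1 fell after CD40L (median 0.08), and 0 passed after LPS (median 0.05). Over all probe sets, 3.71% rose and 1.87% fell after CD40L, and 1.17% and 0.892% after LPS. Counts in a list this short cannot be told apart from these shares. CDC25A, a phosphatase that promotes entry into S phase, rose by 0.33 (adjusted p = 0.00682), and CDC25C, which promotes entry into mitosis, fell by 0.24 (adjusted p = 0.048). The CDC25A call was lost without replicate 1 (0.26, adjusted p = 0.159), control replicate 1 (0.26, 0.0624) or CD40L replicate 1 (0.30, 0.0650) or 2 (0.29, 0.0658). The CDC25C call was lost without each replicate and without 6 single arrays, control 1 and 2, each CD40L array and LPS 1 (-0.29 to -0.16, adjusted p 0.0623 to 0.245). It was lost as well without the batch term (0.223), with the batch as a random effect (0.165) and with only control and CD40L in the fit (0.0731). The same held after median centring (0.0687) and in a robust fit with an intensity trend (0.0659).

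Markers of B cells were present, and most of them fell after the stimuli. All 9 measured B cell markers lay above the median level of all probe sets, and their mean level was 10.28 to 10.37 in control, 9.96 to 10.02 after CD40L and 10.10 to 10.16 after LPS. Of these, 7 fell after CD40L and 5 after LPS, among them CD38 by 0.65 (adjusted p = 9.61e-06), VPREB3 by 0.59 (adjusted p = 1.27e-05), MME by 0.53 (adjusted p = 6.79e-05) and BCL6, which is also listed as a regulator of CIITA, by 0.47 after CD40L. PAX5 differed by 0.39 and 0.31 after CD40L and LPS and MS4A1 by -0.04 and -0.07, none of which passed. After LPS, CD38 (-0.33), VPREB3 (-0.32), MME (-0.32), BCL6 (-0.31) and CD79A fell. Without LPS replicate 2 the calls of CD38 (-0.32, adjusted p = 0.0835), VPREB3 (-0.28, 0.0919), MME (-0.28, 0.115) and BCL6 (-0.27, 0.133) were lost, and that of CD79A was not. The LPS calls of CD38 and VPREB3 were also lost without replicate 1 or 3, control replicate 1 or LPS replicate 1 (-0.34 to -0.28, adjusted p 0.0584 to 0.219), and that of MME when any 1 replicate or LPS array was left out (-0.38 to -0.24, adjusted p 0.0590 to 0.115). The call of CD79B after CD40L was lost without CD40L replicate 3 (-0.29, adjusted p = 0.0502) or without the batch term (-0.34, 0.0796). The part of these falls in the values of CIITA and RFX5 was not tested. Among markers of other cell types 0 passed after either stimulus. CD3E averaged 6.45 and CD14 6.20 over the 9 arrays, near or below the median level of 6.45, while COL1A1 was the brightest of these lists at 7.94. Mean levels stayed at 6.30 to 6.39 for T and NK cell markers (3 of 8 above the median level), 6.22 to 6.27 for myeloid markers (1 of 6) and 6.48 to 6.60 for fibroblast markers (2 of 6) on all arrays.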

How the data were processed

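The authors normalised the arrays by variance stabilisation, used median polish to combine the probes of a set, and deposited generalised log2 values, which were used as given. Background correction was not varied. Of 54675 probe sets, 62 AFFX controls were left out. Array medians were 6.42 to 6.47, and replicates correlated at 0.994 to 0.997. Precision is limited by the 3 arrays per condition.

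Groups and batches came from the labels. limma 3.58.1 in R 4.3.3 (statmod 1.5.0 for the random block) was fitted to all 9 arrays with condition and batch, with two-sided tests and Benjamini-Hochberg adjustment over all probe sets. An exact permutation test of 3 against 3 arrays cannot go below p = 0.1. The batch pairs the arrays, since the methods model experimental batches and the labels number them. Deviations from group means correlated at a mean of 0.217 within batches (-0.181 to 0.466).

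The annotation names 1 gene for 41091 probe sets, several for 1801 and none for 11721. The RefSeq gene table of GRCh38.p14 held 41037 of the 41091 and changed 0 symbols. Members and gene lists were chosen with earlier results of these data known. Named were all members, listed genes called for CD40L or LPS (where over 6, the 4 of largest CD40L change), and the 5 genes nearest to CIITA and RFX5. Other listed genes are named as examples, chosen after their values were seen. The fit was tested on simulated data. Alternatives were other block terms, a fit to the groups compared alone, median centring, quantile normalization, robust eBayes with an intensity trend, dim probe sets left out, each replicate or array left out, and the probe set of largest change.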

Additional observations from a re-analysis of the deposited data

How the results depend on the processing

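The member probe sets were recomputed under 19 alternatives. After CD40L, 4 rose and 0 fell in each. With each replicate or array left out, 2 to 3 rose after LPS and 0 to 3 were higher after CD40L than after LPS, with 0 lower in both comparisons. Without the replicate block, 0 were higher after CD40L than after LPS, and with only the groups compared 4 were. Of 513 recomputed changes, 21 lost their call, 5 gained one and 13 turned sign, of which 0 were called.

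The sign turned for NFYC 211251_x_at between CD40L and LPS under quantile normalization (-0.0104). With each replicate or array left out, this NFYC difference ranged from -0.0040 to 0.048. That of RFXAP 229431_at ranged from -0.207 to 0.0040 after CD40L, from -0.129 to 0.00063 after LPS and from -0.142 to 0.044 between the stimuli. RFXANK 202758_s_at ranged from -0.066 to 0.110 between the stimuli, and NFYB 218127_at from -0.061 to 0.043 after LPS. Of the listed genes other than members and cell type markers, 19 rose and 4 fell after CD40L, 15 and 4 after LPS, and 6 were higher and 1 lower after CD40L than after LPS. With arrays left out the rises numbered 18 to 24, 8 to 18 and 1 to 11, and the falls 2 to 6, 1 to 4 and 0 to 1. Without the replicate block 2 listed genes fell after LPS and 3 were higher after CD40L than after LPS. With only the groups compared, 13 were higher. The replicate block also decided the LPS call of RFX5 202964_s_at (0.39 without it, adjusted p = 0.340), and no other member call against control. Among other genes named, the LPS calls of HLA-DOA (adjusted p = 0.0589), HLA-G (0.0717), BCL6 (0.0566), SOCS1 (0.0923), ZBTB32 (0.103), CD38 (0.0901), MME (0.0760) and VPREB3 (0.0906) were lost without the block, and those of SOCS1 (0.0628), ZBTB32 (0.0743), CD38 (0.0562) and VPREB3 (0.055) with a random block. That of SOCS1 was also lost with only the groups compared (0.0605). The causes were not tested. With left-out arrays fewer samples enter each fit. Dim probe sets near the floor limit what can be seen of CIITA 210925_at, NFYA 228431_at and NFYC 238231_at.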
